A study of Mus musculus with 1617 samples.

Results

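Macrophages of 3 regions of the adult mouse brain were compared, with each region set in turn against the other two. Hippocampus gave 66 cells, thalamus 99 and visual cortex 95, chosen as the single-read adult cells that carry these region names, which made 260 of the 1617 cells of the series. Cells with Calb1, a calcium-binding protein gene of neurons, at 100000 TPM or more were left out, so that 51 hippocampal, 92 thalamic and 87 cortical cells remained (230 in all). The highest Calb1 level among the cells kept was 86323 TPM and the lowest among those left out was 106011 TPM. The cells were sorted as positive for CD45, F4/80 and CD11b and negative for Ly6C, captured singly on Fluidigm C1 chips and made into Nextera XT libraries. The labels call all of them microglia and give their age only as adult; they give no strain, genotype, sex, treatment or animal. Cells of the same regions at postnatal day 14 (P14; 106 hippocampal, 188 thalamic and 112 cortical cells after the same Calb1 limit) are given beside the adult values.

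Microglia are the resident macrophages of the brain. They settle there in the embryo, depend on signalling through the receptor Csf1r, survey the tissue with motile processes and clear debris, dying cells and synapses through their lysosomes. Regions of the adult brain are known to differ in the density and shape of their microglia. The 3 regions here belong to grey matter structures of different kinds, and the comparison asks which genes separate their microglia.

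Values were TPM, transcript levels per length scaled to a total of 1000000 per cell, so depth per cell is unknown. Measured genes are the 12498 whose mean over the cells reached 5 TPM in at least 1 region. Each ratio is on the log2 scale and divides the mean TPM of a region by the average of the other 2 region means, after 1 TPM was added above and below. A gene is called higher or lower in a region where it stood at least 1.5-fold above, or at least 1.5-fold below, each of the other 2 regions. Since no animal is named, each region is 1 sample and the cells are not replicates of it, so no difference was tested, and calls and ratios describe these cells.

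The cells carried the marks of microglia in all 3 regions. P2ry12, the purinergic receptor of microglial processes, stood at 100 TPM or more in 50 of 51 hippocampal, 86 of 92 thalamic and 86 of 87 cortical cells. Of the sort genes, Ptprc (CD45) averaged 692, 593 and 597 TPM and Itgam (CD11b) 317, 322 and 359.6 TPM in hippocampus, thalamus and visual cortex. Emr1 (F4/80) averaged 42.6 TPM in visual cortex, against 194 TPM in hippocampus and 161 TPM in thalamus (log2 -2.03), with 11 of 87, 9 of 51 and 13 of 92 cells at 100 TPM or more. Markers of mural, ependymal and choroid plexus, and erythroid cells had no measured member, and those of astrocytes, neurons and T and natural killer cells had 1 each. Neuronal markers summed to 1.42, 20.4 and 1.03 TPM and astrocyte markers to 4.53, 8.92 and 18.53 TPM in hippocampus, thalamus and visual cortex. In the same order, neutrophil markers summed to 446, 455 and 493 TPM and B cell markers to 588, 773 and 772 TPM. Sums were 34.2, 29.2 and 24.0 TPM for monocyte, 80.75, 63.2 and 42.7 TPM for oligodendrocyte lineage, and 132.6, 42.6 and 52.1 TPM for endothelial markers. Markers of border-associated macrophages, the macrophages of meninges and perivascular spaces, summed to 744 TPM in hippocampus, 348 TPM in thalamus and 493 TPM in visual cortex. Of these markers, Mrc1, Pf4 and Dab2, whose means are given below, made up a small part of the sums in thalamus and visual cortex. Stab1 was the only other of these markers to reach a mean of 50 TPM in a region. Of the hippocampal cells, 2 had 3 or more of these markers at 100 TPM or more; they held 374 and 559 genes, came from the first run of hippocampal titles and had Mrc1 at 5160.0 and 1134 TPM. No thalamic cell did, and 1 cortical cell with 1050.0 genes did.

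The cell numbers in the titles fell into 8 unbroken runs, which made an early and a late set, each with all 3 regions; the sources used here do not say what the runs stand for. The early set held 9 hippocampal, 41 thalamic and 21 cortical kept cells, and the late set 42, 51 and 66. Of the 15 hippocampal cells above the Calb1 limit, 14 came from the first hippocampal run, 60.9% of its cells. Median genes per cell at 1 TPM or more were 3024 in hippocampus, 3788 in thalamus and 3527 in visual cortex. Xist and at least 1 of 4 Y-linked genes were both seen at 1 TPM or more in 27 of 51, 56 of 92 and 49 of 87 cells. No cell had both at 100 TPM or more. At that level a Y-linked gene was seen in only 1 of 51, 0 of 92 and 0 of 87 cells, so joint detection could hardly occur there. Given the joint detection at 1 TPM, reads at a few TPM are not a sure sign of expression in that cell. Shares of cells are therefore given at 100 TPM, and the cause was not tested.

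Many calls at the 1.5-fold limit were lost without the highest cell of each gene and region, in shares that differed by region and direction. Hippocampus had 2171 genes called higher (17.4%) and 3468 called lower (27.7%), thalamus 2878 (23%) and 1504 (12%), and visual cortex 2415 (19.3%) and 1907 (15.3%). The median ratio of all measured genes was -0.50 in hippocampus, -0.0041 in thalamus and -0.14 in visual cortex, and as a difference of mean log2(TPM + 1), where each cell weighs more evenly, it was -0.12, 0.10 and -0.0041. Over the same 12498 genes and without the highest cell of each gene and region, 976 of the 2171 genes called higher in hippocampus, 2154 of 2878 in thalamus and 1498 of 2415 in visual cortex were still called. Of the genes called lower, 2568 of 3468 in hippocampus, 687 of 1504 in thalamus and 995 of 1907 in visual cortex were. With region means rescaled by median ratio, hippocampus had 2811 genes higher and 2854 lower, and thalamus 2350 and 1875. Without the second thalamic run 2517 genes were called lower in thalamus, and without the second cortical run 3231 were called lower in visual cortex. A narrower set was therefore added after the values were seen, the 392 genes at 1 TPM or more in at least 75% of the cells of each region, here called widely detected at that level. At 100 TPM some of them were in far fewer cells, as Mkln1 was in 9 of 51 hippocampal cells and Cr1l in 13, against 40 and 44 at 1 TPM. Among these, hippocampus had 23 called higher (5.87%) and 24 lower (6.12%), thalamus 25 (6.38%) and 20 (5.1%), and visual cortex 17 (4.34%) and 21 (5.36%). The widely detected genes described first for each region are those that were called, pointed the same way against both other regions in the early set, the late set and the mean of log2 values, and reached a mean of 500 TPM in some region; 26 genes met this, of which 24 are described.

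Fth1, Sat1, Actb and Gpx1 stood higher by mean level in thalamus than in both other regions, and P2ry12 and Siglech, genes of homeostatic microglia, stood lower. Of the widely detected genes, 18 of the 25 called higher in thalamus and 7 of the 20 called lower kept their direction in both sets of titles and in mean log2 values. Fth1, the ferritin heavy chain that stores iron (GRCm38 chromosome 19, 9980598 to 9985098, plus strand), ranged over 0 to 11171 TPM in thalamic cells with a median of 1948 TPM, against 0 to 3018 TPM with a median of 247 TPM in hippocampal cells and 0 to 6593.5 TPM with a median of 423 TPM in cortical cells. It stood at 100 TPM or more in 89.1% of thalamic cells (82 of 92; exact Clopper-Pearson 95% interval 80.9% to 94.7%), 60.8% of hippocampal cells (31 of 51; 46.1% to 74.2%) and 66.7% of cortical cells (58 of 87; 55.8% to 76.4%), where the intervals cover counting error over cells only. Most thalamic cells were above the medians of the other regions, although the ranges of the 3 regions overlapped. Mean Fth1 was 2649 TPM in thalamus, 545 TPM in hippocampus and 1015 TPM in visual cortex (log2 1.76), and the ratio was 2.32 in the early set and 1.67 in the late set. Fth1 has near-identical copies elsewhere in the genome, and the sources used here do not say how reads were shared among them.

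Sat1, the spermidine/spermine acetyltransferase that starts polyamine breakdown (chromosome X, 155213132 to 155216449, minus strand), was among the most abundant transcripts of these cells. Thalamic cells held 8.88 to 127190 TPM of it with a median of 7538 TPM, hippocampal cells 0 to 33469 TPM with a median of 4786 TPM, and cortical cells 6.27 to 42494 TPM with a median of 2889 TPM. The thalamic mean of 12935 TPM compared with 7358 TPM in hippocampus and 5945 TPM in visual cortex (log2 0.96). The ratio of Sat1 was 0.98 in the early and 1.11 in the late set, where a shared direction was a condition for describing it. Actb, beta-actin, averaged 11111 TPM in thalamus, 7118 TPM in hippocampus and 6047 TPM in visual cortex (log2 0.75, with 0.71 in the early and 0.74 in the late set). Its median was 10239 TPM in thalamus, against 6505 and 5453 TPM in hippocampus and visual cortex, so that the shift ran through most cells. Actg1, the gamma-actin gene, pointed the other way without being called, with 1249 TPM in thalamus, 1982 TPM in hippocampus and 1750.2 TPM in visual cortex (log2 -0.58). Gpx1, the cytosolic glutathione peroxidase, averaged 984 TPM in thalamus, 533 TPM in hippocampus and 529.8 TPM in visual cortex (log2 0.89) and stood at 100 TPM or more in 52 of 92, 17 of 51 and 30 of 87 cells. Grn, progranulin, a lysosomal growth factor precursor, averaged 1892 TPM against 1224 and 1080.0 TPM (log2 0.72), but 36% of the thalamic total came from 1 cell and the 3 medians were 376, 310.0 and 309 TPM.

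Ptafr, the receptor for platelet-activating factor (chromosome 4), had a median of 342 TPM in thalamus, 173 TPM in hippocampus and 44.4 TPM in visual cortex, with means of 534, 315 and 159.7 TPM (log2 1.17). Arglu1, a nuclear splicing cofactor (chromosome 8), had medians of 578, 274 and 71.4 TPM in the same order and means of 675, 440.2 and 208 TPM (log2 1.06). For both genes hippocampus lay between thalamus and visual cortex over all cells and, by mean level, in the late set. In the early set hippocampus was lowest for both. Early means of Ptafr were 523 TPM in thalamus, 118 TPM in hippocampus and 337 TPM in visual cortex. Those of Arglu1 were 723, 319 and 353 TPM in the same order. Dnaja1, a co-chaperone of Hsp70, averaged 1559.7 TPM in thalamus, 745 TPM in hippocampus and 802 TPM in visual cortex (log2 1.01), with 0.38 in the early and 1.23 in the late set. Yam1, a table entry that matched no gene of the annotation used for positions, averaged 1543, 529 and 558 TPM (log2 1.504).

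**Figure D1:**
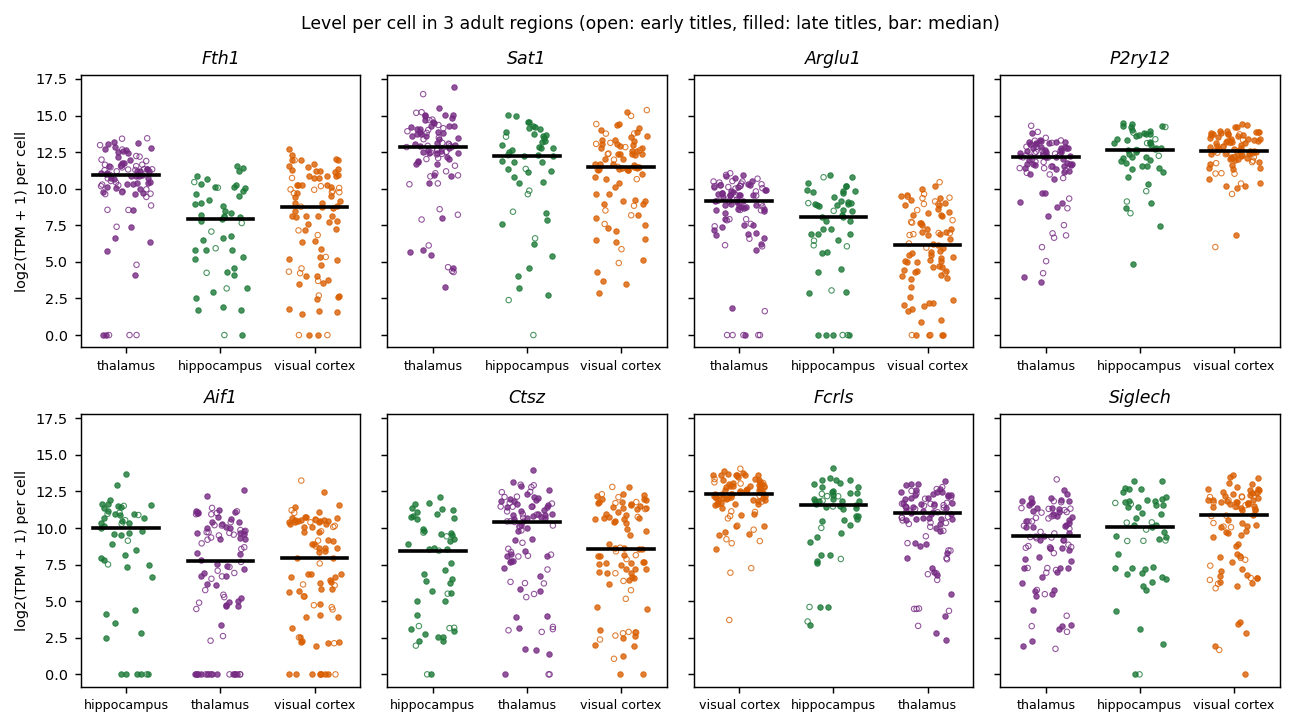
Level of 8 genes per cell as log2(TPM + 1) in adult thalamus, hippocampus and visual cortex, with the region that each gene is described for on the left. Each point is 1 cell, open for the early and filled for the late set of titles, and the bar is the median; for Fth1 the thalamic median of 1948 TPM lies above the 247 TPM of hippocampus and the 423 TPM of visual cortex, and the clouds overlap for every gene shown.

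P2ry12 (chromosome 3, 59216272 to 59262871, minus strand) ranged over 11.5 to 20198 TPM in thalamic cells with a median of 4520 TPM, against 28.1 to 22682 TPM with a median of 6426 TPM in hippocampus and 63.7 to 21824 TPM with a median of 6100 TPM in visual cortex. Mean levels were 4810 TPM in thalamus, 8090.0 TPM in hippocampus and 7658 TPM in visual cortex (log2 -0.71). In the early set the thalamic mean of 4763 TPM was close to the cortical 5020.2 TPM and below the hippocampal 7362 TPM, and in the late set 4848 TPM stood below 8246 TPM in hippocampus and 8498 TPM in visual cortex. Siglech, a sialic acid-binding lectin of microglia (chromosome 7), averaged 1356 TPM in thalamus, 2056 TPM in hippocampus and 2671 TPM in visual cortex (log2 -0.80). In the same order, its medians were 697, 1077 and 1855 TPM, and 75 of 92, 41 of 51 and 72 of 87 cells stood at 100 TPM or more. In the early set the thalamic mean of 1268 TPM was close to the hippocampal 1316 TPM, with 1905 TPM in visual cortex. Tmem50a, a transmembrane protein gene, averaged 441 TPM against 1021 and 937 TPM (log2 -1.15), and the ratio was -1.09 in the early and -1.18 in the late set. Evi2a, a membrane protein gene that lies inside an intron of Nf1 on the other strand, averaged 442 TPM against 914 and 829 TPM (log2 -0.98). Its median of 43.3 TPM in thalamus lay between the 15.4 TPM of hippocampus and the 66.9 TPM of visual cortex, and 38 of 92, 21 of 51 and 41 of 87 cells stood at 100 TPM or more. Without strand information its reads cannot be told from those of Nf1.

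The named genes taken by rank in thalamus were seen in fewer cells. They included Pmpca, Scarb1, Myo1c, Iars, Tmem134, Atg13, Apbb2, Pdlim4 and Cox5b among those higher and Uba1, Mms19, Zfp868, Tbc1d23, Mob1a, Myo7a, Btf3, Ubxn4, Atp6v1d and Atp5j2 among those lower. Pmpca, a subunit of the mitochondrial processing peptidase, averaged 110.4 TPM in thalamus, 1.33 TPM in hippocampus and 3.31 TPM in visual cortex (log2 5.07), and its median was 0 in each region, with 9 of 92, 0 of 51 and 1 of 87 cells at 100 TPM or more. Scarb1, the scavenger receptor for high-density lipoprotein, averaged 69.5, 0.527 and 2.43 TPM (log2 4.83), from 4, 0 and 0 such cells. Btf3, a nascent-chain-binding transcription factor, stood at 41.7 TPM in thalamus, 146 TPM in hippocampus and 143 TPM in visual cortex (log2 -1.77). Atp5j2, a subunit of the mitochondrial ATP synthase, stood at 57.9, 178 and 164 TPM (log2 -1.54). The ratios of these genes rest on a few cells at high TPM among many at 0.

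Across gene lists, thalamus had lysosome and phagocytosis genes higher in 4 of 20 measured members and lower in none, with a median of 0.34 (0.25 as a difference of mean log2). The 4 were Grn, Psap, the precursor of the saposins, and Axl and Gas6, a receptor and its ligand for apoptotic cells. Psap averaged 189 TPM in thalamus, 78.7 TPM in hippocampus and 90.9 TPM in visual cortex (log2 1.15). TGF-beta signalling had 4 of 12 members higher and none lower (median 0.55, or 0.29), with Tgfb1, Smad4, Smad7 and Bmpr2. Cholesterol and lipid handling had 4 of 13 higher and none lower (0.36, or 0.095), among them Plin2, Srebf1 and Fdps, although the ratio of Plin2 was -0.37 in the late set and -0.10 without the first thalamic run. Heat shock genes had 3 of 13 higher, Hspa1a, Hspb1 and Dnaja1, and none lower (0.26, or 0.51), with a median of -0.14 in the early and 0.71 in the late set. Over all genes 23% were called higher in thalamus, and the shares of these lists lay on both sides of that value.

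Disease-associated microglia genes, a set induced around plaques in mouse models, went both ways in thalamus, with Apoe, Clec7a, Axl, Lgals3 and Fth1 higher, Ccl6 and Csf1 lower, and a median of -0.071 over 23 members. Apoe, the lipid carrier, averaged 932 TPM in thalamus, 142 TPM in hippocampus and 86.6 TPM in visual cortex (log2 3.02), but its thalamic median was 0 and 54% of the thalamic total came from 1 cell at 46329 TPM. Its direction turned when log2 values were averaged over cells (-0.24). Junb, an AP-1 subunit of the immediate early response, averaged 182 TPM in thalamus, 52.0 TPM in hippocampus and 27.98 TPM in visual cortex (log2 2.16), with 35 of 92, 9 of 51 and 4 of 87 cells at 100 TPM or more. Its ratio was 2.39 in the early and 2.18 in the late set. Ier2, another immediate early gene, averaged 120.1, 44.0 and 62.4 TPM (log2 1.16). The list as a whole had 2 of 19 members higher and 1, Fosl2, lower, so that Junb and Ier2 did not stand for the group. Beside both lists, 23% of all genes were called higher in thalamus and 12% lower.

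Homeostatic microglia genes had no member called higher in thalamus and 3 of 20 called lower, P2ry12, Siglech and Mef2a, a transcription factor of the microglial programme. Mef2a averaged 216 TPM in thalamus, 462 TPM in hippocampus and 419.9 TPM in visual cortex (log2 -1.03). The median of the list was -0.066, and over all genes 12% were called lower in thalamus and 23% higher. Antigen uptake and Fc receptor genes had 4 of 17 members lower, Clec5a, Cd33, Cd180 and Tlr4, and none higher (median -0.33, or -0.037 in mean log2 values), and in the early set alone Tlr4 stood at 1.72. Receptors for neural signals likewise had 4 of 15 lower, P2rx7, P2ry12, Cd200r1 and Il10ra, and none higher, with a median of -0.10 that was 0.28 in mean log2 values, and Cd200r1 stood at 1.2 in the early set. Complement genes had no call among 8; C1qa, a chain of the initiating complement component, averaged 843 TPM in thalamus, 567 TPM in hippocampus and 540.0 TPM in visual cortex, with medians of 576, 205 and 180.1 TPM.

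Hippocampal cells had, by mean level, more Aif1 and less Ctsz and Fth1 than the cells of both other regions. Of the widely detected genes, 7 of the 23 called higher in hippocampus and 17 of the 24 called lower kept their direction in both sets and in mean log2 values. Aif1, which encodes the actin-bundling protein Iba1 used to stain microglia (chromosome 17, 35170991 to 35176068, minus strand), ranged over 0 to 13090.0 TPM in hippocampal cells with a median of 1043 TPM, against 0 to 6328 TPM with a median of 217 TPM in thalamus and 0 to 9701 TPM with a median of 252 TPM in visual cortex. The share of cells at 100 TPM or more was 78.4% in hippocampus (40 of 51; 95% interval 64.7% to 88.7%), 62.0% in thalamus (57 of 92; 51.2% to 71.9%) and 57.5% in visual cortex (50 of 87; 46.4% to 68.0%), so that the intervals overlapped. Means were 1531, 713 and 784 TPM (log2 1.03), and the ratio was 0.73 in the early and 1.08 in the late set. Cells without Aif1 reads occurred in every region, and above them the hippocampal values were shifted upward.

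Ccnl1, a cyclin that takes part in splicing, averaged 1216.5 TPM in hippocampus, 669 TPM in thalamus and 629 TPM in visual cortex (log2 0.90), but 744, 582 and 730.1 TPM in the early set, where the ratio was 0.18. Son, a splicing factor of nuclear speckles, averaged 579, 241 and 299.5 TPM (log2 1.10), with medians of 119, 91.5 and 84.2 TPM that lay closer together than the means. Cr1l, the mouse complement regulator Crry, averaged 723, 157 and 181 TPM (log2 2.09), with medians of only 14.6, 12.8 and 8.07 TPM and 13 of 51, 15 of 92 and 13 of 87 cells at 100 TPM or more. In hippocampus 32.5% of the Cr1l total came from 1 cell.

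Among the genes lower in hippocampus, Ctsz, the lysosomal carboxypeptidase cathepsin Z (chromosome 2, 174427493 to 174439039, minus strand), ranged over 0 to 4553 TPM in hippocampal cells, against 0 to 16114 TPM in thalamus and 0 to 7166 TPM in visual cortex. It averaged 768 TPM in hippocampus, 2049 TPM in thalamus and 1374 TPM in visual cortex (log2 -1.15), with medians of 349.8, 1381.5 and 381 TPM and a ratio of -2.92 in the early and -1.001 in the late set. The hippocampal and cortical medians lay close together, below that of thalamus, and the ranges overlapped. Fth1 was lower in hippocampus as well (log2 -1.75), by 2.28 against thalamus and by 0.90 against visual cortex on the log2 scale. Plek, pleckstrin, a substrate of protein kinase C, averaged 217, 368 and 543 TPM (log2 -1.07), although its median of 67.3 TPM in hippocampus stood above the 60.9 TPM of thalamus and the 43.8 TPM of visual cortex. Ighm, the immunoglobulin mu heavy chain and a marker of B cells, averaged 449, 682 and 717 TPM (log2 -0.64). Its partner gene Cd79b, of the B cell receptor, averaged 137 TPM in hippocampus, 88.1 TPM in thalamus and 51.9 TPM in visual cortex, the opposite order, and in the early set the hippocampal ratio of Cd79b was -6.84.

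The named genes taken by rank in hippocampus were Anapc7, Tubgcp4, Banf1, Prorsd1, Kpna4, Coro7, Cct3, Ganab, Zc3h15 and Zfp60 among those higher, and Ddrgk1, Cdc23, Pon2, Nsmaf, Prdx2, Ccndbp1, Anxa4, Farsa, Ints8 and Ccbl2 among those lower. Without the third hippocampal run the ratio of Banf1 was -0.22. Anapc7, a subunit of the anaphase-promoting complex, averaged 181 TPM in hippocampus, 12.3 TPM in thalamus and 3.57 TPM in visual cortex (log2 4.35), and 1 hippocampal cell held 64.4% of the hippocampal total. Prorsd1 rested on more cells, with 149, 24.8 and 21.7 TPM (log2 2.63) and 8 of 51, 5 of 92 and 3 of 87 cells at 100 TPM or more. Ddrgk1, an adaptor of the endoplasmic reticulum for the modifier Ufm1, averaged 0.712 TPM in hippocampus, 158 TPM in thalamus and 69.9 TPM in visual cortex (log2 -6.07), and no hippocampal cell reached 100 TPM, against 20 thalamic and 6 cortical cells. Prdx2, a peroxiredoxin, averaged 6.14, 174 and 188 TPM (log2 -4.67).

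Among the lists of function, glycolysis had the largest median in hippocampus, 0.78 over 13 members, with Hk1, Hk2, Gpi1, Pgk1, Pkm and Slc2a1 higher and Pgam1 lower; over all genes 17.4% were called higher and 27.7% lower. As a difference of mean log2 values the median was 0.12, so that the ratio rested on the upper cells. The ratio median of the glycolysis list was 0.29 in the early set alone, 0.21 in the late set alone and -0.19 at P14. Mitochondrially encoded genes had 4 of 15 members higher, mt-Co1, mt-Atp6, mt-Atp8 and mt-Rnr2, and none lower (median 0.53), but the median was -0.89 in the early and 1.02 in the late set. Of homeostatic genes, 2 of 20 were lower, among them Slc2a5, the fructose transporter, which averaged 231 TPM in hippocampus, 580.5 TPM in thalamus and 499 TPM in visual cortex (log2 -1.22). None were higher, and the median was 0.036 against -0.50 over all measured genes. As a difference of mean log2 values the relation turned, with -0.36 for the list against -0.12 over all measured genes. The ratio median of the list was -0.41 in the early and 0.038 in the late set. Slc1a3, a glutamate transporter, averaged 401 TPM in hippocampus, 168 TPM in thalamus and 137 TPM in visual cortex (log2 1.39, with 2.03 in the early and 1.08 in the late set). Abcg1, a cholesterol exporter, averaged 587, 362 and 250.5 TPM (log2 0.94), with medians of 209, 45.5 and 43.7 TPM. In the early set alone the Abcg1 ratio was -0.16.

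The border-associated macrophage list had 4 of 5 measured members called higher in hippocampus, against 17.4% of all genes. Of the other cell type lists, only those of monocytes and the oligodendrocyte lineage had as many as 4 measured members. Mrc1, the mannose receptor, averaged 125 TPM in hippocampus, 7.83 TPM in thalamus and 11.4 TPM in visual cortex, and Pf4, a chemokine of these macrophages, 86.0, 2.82 and 6.72 TPM. Without the 3 cells that carried several of the markers, the ratio of Mrc1 in hippocampus was -1.97 in place of 3.57. Dab2, an endocytic adaptor, averaged 62.7, 10.05 and 16.2 TPM. The 2 hippocampal cells among those 3 held Dab2 at 2100 and 306 TPM and Pf4 at 0 and 4264 TPM. The median ratio of the list in hippocampus was 6.65 in the early set, which held both cells, and -0.46 in the late set.

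By mean level, visual cortex had more Fcrls, Cltc, Mkln1 and Qk than both other regions, and no abundant gene met the same limits as lower. Of the widely detected genes, 11 of the 17 called higher in visual cortex kept their direction in both sets and in mean log2 values, and 3 of the 21 called lower did. Fcrls, an Fc receptor-like scavenger receptor found on mouse microglia (chromosome 3, 87250758 to 87263738, minus strand), ranged over 12.2 to 16997 TPM in cortical cells with a median of 5079 TPM, against 9.22 to 17620.0 TPM with a median of 3099.7 TPM in hippocampus and 4.03 to 9382 TPM with a median of 2055 TPM in thalamus. Means were 5737, 3754 and 2523 TPM (log2 0.87), with 4162, 2479 and 2007.5 TPM in the early set and 6238, 4027 and 2937 TPM in the late set. That visual cortex was highest in both sets was a condition for describing the gene. Hippocampus stood above thalamus in both sets, and the ranges overlapped.

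Qk, an RNA-binding protein gene, averaged 1058 TPM in visual cortex, 688 TPM in hippocampus and 539 TPM in thalamus (log2 0.79), and 33.5% of its cortical total came from 1 cell. Cltc, the clathrin heavy chain, averaged 604.5, 293 and 292 TPM (log2 1.04). Mkln1, muskelin, averaged 719, 379.7 and 294 TPM (log2 1.09). The medians of Cltc were 36.2 TPM in visual cortex, 22.4 TPM in hippocampus and 61.1 TPM in thalamus, so that by median thalamus was highest, and 37 of 87, 17 of 51 and 37 of 92 cells stood at 100 TPM or more. Those of Mkln1 were 21.1, 9.39 and 14.3 TPM. The means of both genes were carried by the upper cells.

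**Figure D2:**
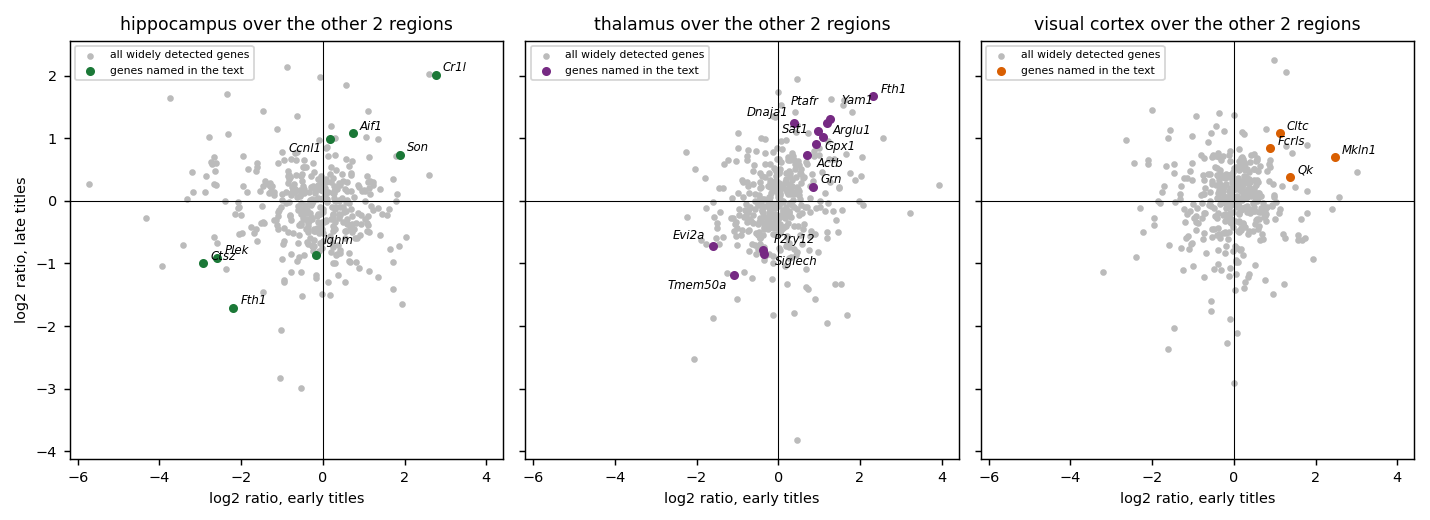
Regional log2 ratios of the 392 widely detected genes, with the early set of titles on the horizontal and the late set on the vertical axis, for hippocampus, thalamus and visual cortex each over the other 2 regions. Coloured points are the genes named in the text, which were chosen to share their sign in both sets; over all 392 genes the Pearson coefficients are -0.024, 0.21 and 0.052.

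The named genes taken by rank in visual cortex were Tmbim1, Ppp3r1, Mdp1, Cwc25, Phf8, Iqcc, Tbc1d9b, Llph, Vps39 and Pts among those higher and Tbce, Idh1, Txn2, Igsf6, Mcmbp, Pde4b, Etv3, Psmd2, Eftud2 and Rgl2 among those lower. Pts, an enzyme of tetrahydrobiopterin synthesis, averaged 203 TPM in visual cortex, 33.3 TPM in hippocampus and 43.8 TPM in thalamus (log2 2.36). Tmbim1 averaged 113, 0.736 and 7.12 TPM (log2 4.54), from 5 of 87, 0 of 51 and 1 of 92 cells at 100 TPM or more. Igsf6, an immunoglobulin-superfamily receptor of myeloid cells, averaged 32.2 TPM in visual cortex, 219 TPM in hippocampus and 277 TPM in thalamus (log2 -2.91), with 4 of 87, 5 of 51 and 19 of 92 cells at 100 TPM or more. Txn2, mitochondrial thioredoxin, averaged 7.99, 62.7 and 198 TPM (log2 -3.87).

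Of MHC class I genes in visual cortex, 2 of 10 were called lower, H2-D1 and Nlrc5, and none higher, with a median of -0.62 (-0.24 in mean log2); over all genes 15.3% were called lower in visual cortex. H2-D1, a classical class I heavy chain, averaged 651 TPM in visual cortex, 1058 TPM in hippocampus and 1126 TPM in thalamus (log2 -0.75). It has near-identical relatives, so its reads may be shared with them. Gm2a, a lysosomal activator of ganglioside breakdown, averaged 50.9 TPM in visual cortex, 187 TPM in hippocampus and 251 TPM in thalamus (log2 -2.08), with 13 of 87, 19 of 51 and 56 of 92 cells at 100 TPM or more. Its ratio was -1.06 in the early and -2.80 in the late set. Hexa, a lysosomal enzyme subunit, averaged 723, 312 and 440.0 TPM (log2 0.94) and was the only lysosomal gene called higher, with Ctsf and Cd36 lower. Ion channel and transporter genes had 5 of 15 lower, Kcnk6, Kcnj2, Hvcn1, Trpm2 and Slc7a8, and 1, Kcnk13, higher (median -0.37, or -0.11). Homeostatic genes had Fcrls higher and Trem2 lower among 20 (median 0.15, or 0.32). Bhlhe41, a transcription factor of the microglial set, averaged 351 TPM in visual cortex, 1129.8 TPM in hippocampus and 611 TPM in thalamus (log2 -1.31), and the ratio was -0.16 in the early and -2.27 in the late set. A single cell held 53.1% of the hippocampal Bhlhe41 total.

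**Figure D3:**
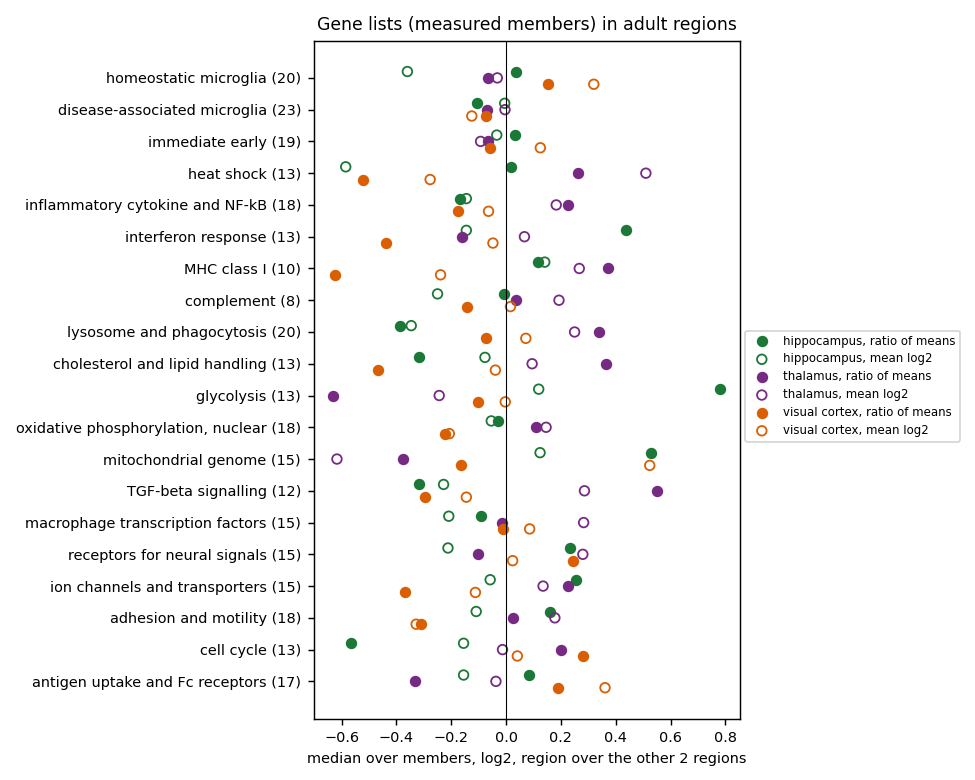
Median log2 ratio over the measured members of 20 gene lists in adult hippocampus, thalamus and visual cortex, each over the other 2 regions; the number of members is in brackets. Filled points use ratios of mean TPM and open points differences of mean log2(TPM + 1); the largest filled value is 0.78 for glycolysis in hippocampus, where the open value is 0.12.

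The early and late sets gave largely different regional profiles beyond the genes chosen for agreement. Over the 392 widely detected genes, the Pearson coefficient between the regional ratios of the 2 sets was -0.024 for hippocampus, 0.21 for thalamus and 0.052 for visual cortex, and 49.5%, 58.9% and 52.8% of the genes had the same sign. As differences of mean log2 values the coefficients were -0.087, 0.25 and -0.083. These are coefficients across genes of the same libraries, given as a description. The 9 early hippocampal cells make the early ratios the less precise ones.

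Cells of the same regions at P14 give the same measure in cells that the adult comparison did not use. Over 10978 genes measured at both ages, P14 hippocampus had 13.11% of genes higher and 13.7% lower, P14 thalamus 12.47% and 10.19%, and P14 visual cortex 13.33% and 16%. Of the adult genes called higher in hippocampus, 261 of 1782 (14.7%) were also called higher there at P14, and 282 were called lower. For thalamus the numbers were 336 of 2417 (13.9%) and 289, and for visual cortex 319 of 1963 (16.3%) and 386. Of the genes called lower, 464 of 3122 (14.9%) in hippocampus, 158 of 1346 (11.7%) in thalamus and 327 of 1740 (18.8%) in visual cortex were called lower at P14 too. All of these shares were close to those of all genes at P14. Of the 25 described pairs of a gene and a region, 9 had the same sign at P14, and 1, Dnaja1 in thalamus (795 TPM, against 522 TPM in hippocampus and 371 TPM in visual cortex), was called in the same direction.

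Fth1 in thalamus averaged 1635 TPM at P14, against 2494 TPM in hippocampus and 1183 TPM in visual cortex, so that the highest region was hippocampus. Aif1 in hippocampus averaged 596 TPM at P14, against 727 and 831 TPM. Fcrls in visual cortex averaged 6384 TPM at P14, against 4609 TPM in hippocampus and 5603 TPM in thalamus, with visual cortex highest at both ages (log2 0.32 at P14). P2ry12 in thalamus averaged 10032 TPM at P14, against 10585 TPM in hippocampus and 11557 TPM in visual cortex, where the regions lay within 1.5-fold of each other. Of the 151 called pairs of a region and a gene named by rank or from a list, 11 were called in the same direction at P14, 11 in the opposite direction and 129 in neither. Of the 11 called in the same direction, 3 besides Dnaja1 are given here, chosen after their values were seen. Abcg1 was called higher in hippocampus at both ages, with 779 TPM at P14 against 274 and 291 TPM (log2 1.46). Anapc7 was also called higher in hippocampus at both ages, with 247 TPM at P14 against 24.3 TPM in thalamus and 12.51 TPM in visual cortex. H2-D1 was called lower in visual cortex at both ages, with 473 TPM at P14 against 965 TPM in hippocampus and 715 TPM in thalamus.

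**Figure D4:**
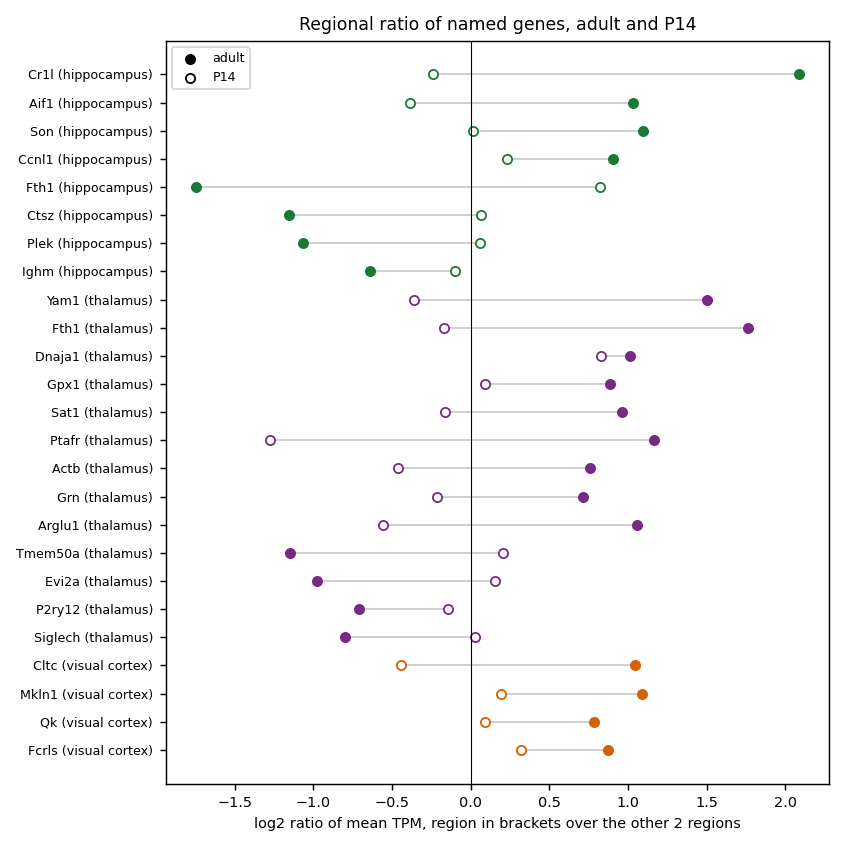
Regional log2 ratio of mean TPM for the 25 described pairs of a gene and a region, filled in the adult and open at P14, with the region over the other 2 in brackets. The adult values were used to choose the genes; at P14 most lie nearer to 0 or on the other side, with Fth1 in hippocampus at 0.82 and Ptafr in thalamus at -1.27, while Dnaja1 in thalamus is at 0.83.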

How the data were processed

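The authors deposited 1 table of TPM values, which this work used for 43280 genes; per the submitters' processing notes RSEM 1.2.19, Seurat and the GRCm38 build were used, and the sources used here do not give the aligner, annotation or filters. TPM keeps no depth, and there are no molecular identifiers, so intervals cover counting error over cells only. Of its 1617 columns, 688 were used and 929 were not. Column sums ran from 996167 to 1000000, and no 2 columns were identical. Cells were grouped by the source names in the labels, with layout taken from the descriptions; no doublet caller was run.

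Means over cells, ratios with a pseudocount of 1 TPM, the 5 TPM minimum and the 1.5-fold limit against each other region were computed with Python 3.11.15, numpy 2.4.6, pandas 2.3.3 and scipy 1.17.1, and drawn with matplotlib 3.10.9. The code that makes the calls was run on simulated data, which does not show how reliable the calls are in these cells. Genes named by rank needed a mean of 50 TPM in the region (or, for lower genes, in each other region), 1 TPM in 25% of those cells and the same sign in mean log2 values and in both sets of titles; the 10 with the largest smaller ratio in each direction were taken, with Xist, pseudogenes and predicted, Y-linked, ribosomal protein and mitochondrial genes kept out, and up to 4 genes per list. The widely detected genes, and some list members named because they made up a count, were chosen after their values were seen. The members and gene lists were chosen with earlier results of these data known. A few genes that met the naming rules are not reported here. Positions are from GENCODE M21 (39379 names matched 1 gene, 91.0%). Antisense and overlapping genes cannot be separated without strand information.

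Alternatives were other pseudocounts, other filters, differences of mean log2 values, other cells left out, rescaling, each set of titles alone, leaving out each of the 8 runs, weighting the early and late sets equally and leaving out the highest cell of each gene and region.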

Additional observations from a re-analysis of the deposited data

Results flagged for a closer look

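Of the 25 described pairs of a region and a widely detected gene, 2 stood more than 1.5-fold on one side of both other regions in the adult and more than 1.5-fold on the other side at P14. Fth1 in hippocampus had a log2 ratio of -1.75 in the adult and 0.82 at P14, with 545 TPM in hippocampus against 2649 TPM in thalamus and 1015 TPM in visual cortex in the adult. Ptafr in thalamus had 1.17 in the adult and -1.27 at P14, where it averaged 215 TPM in thalamus against 424 TPM in hippocampus and 622 TPM in visual cortex. Each age and region is 1 sample, so the difference between the ages was not tested. Among the 151 called pairs named by rank or from a list, 11 were likewise called in opposite directions at the 2 ages, as many as were called in the same direction.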

How the results depend on the processing

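No paired analysis was possible because the labels give the regions no shared replicate numbers and no result comes from a test. With the early and late sets weighted equally in each region, a setting chosen after seeing the data, 147 of the 171 called pairs described below kept their call, 22 lost it and 2 turned, both of Cd79b, at -0.25 in hippocampus and 0.24 in visual cortex. Each region is 1 sample and TPM keeps no depth, so no alternative shows how far animals differ. The counts of called genes depended most on how cells were summarised. As differences of mean log2 values, hippocampus had 229 genes higher and 890 lower, thalamus 716 and 105, and visual cortex 233 and 178. Without the highest cell of each gene and region, with the 5 TPM minimum applied again, 942 genes were higher in hippocampus, 791 lower in thalamus and 1163 lower in visual cortex. A pseudocount of 10 TPM gave 2050.0 lower in hippocampus, 952 lower in thalamus and 1187 lower in visual cortex. A minimum mean of 20 TPM gave 2297 lower in hippocampus, 1687 higher in thalamus and 1481 higher in visual cortex. Among the widely detected genes alone, a set chosen after seeing the data, the counts were 23 and 24, 25 and 20, and 17 and 21; fewer genes were tested there. Leaving out each run of titles gave 2107 to 2369 genes higher and 2691 to 4599 lower in hippocampus, 2605 to 3305 and 1211 to 2517 in thalamus, and 2365 to 2767 and 1559 to 3231 in visual cortex. Other settings kept these counts within 1.5 times.

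The 171 called pairs of a gene and a region include genes named by rank and widely detected genes that met the naming limits. These were chosen to share their sign in mean log2 values, the early set and the late set. They could therefore not turn in those settings or with the sets weighted equally, and only pairs taken from a list alone could. As differences of mean log2 values, 73 of the 171 pairs kept their call and 5 turned. In that setting the turned values were -0.11 for Bhlhe41, 0.12 for H2-T23 and -0.011 for Pecam1 in hippocampus, and -0.24 for Apoe and -0.46 for Plin2 in thalamus. In the early set alone, where 14 turned, hippocampus had Abcg1 at -0.16, Cd14 at 0.12, Cd79b at -6.84, Ctnna1 at -0.84, H2-Q4 at -2.02, Itga9 at -0.35, Pecam1 at -0.28, Smad7 at 0.10 and Spi1 at 0.087. Thalamus had Cd200r1 at 1.2, Pgam1 at -0.21 and Tlr4 at 1.72, and visual cortex had Cd79b at 1.44 and H2-DMa at -0.11. In the late set, 4 turned, with Mrc1 at -2.31 and Pf4 at -0.87 in hippocampus, Plin2 at -0.37 in thalamus and Irf1 at -0.13 in visual cortex. Without cells under 1000 genes, hippocampal Mrc1 was -2.02 and Pf4 -0.72. Without cells carrying 3 or more border macrophage markers, a setting chosen after seeing the data, Mrc1 was -1.97 in hippocampus and Pf4 0.39 in thalamus. Without the highest cell, thalamic Pf4 was 0.032. With each run left out in turn, the ratio in hippocampus ran over -2.29 to 4.76 for Mrc1 and -0.95 to 5.09 for Pf4, lowest without the first hippocampal run, and over -0.22 to 4.40 for Banf1, -0.85 to 2.97 for H2-Q4 and -2.11 to 3.23 for Pecam1, lowest without the third. Thalamic Plin2 ran over -0.10 to 1.75, lowest without the first thalamic run, and cortical Cd79b over -5.01 to 0.14, highest without the second cortical run. The cause was not tested.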

Other observations

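The 30 adult cells left out for their Calb1 level had a transcriptome dominated by a few genes. Calb1 averaged 477130 TPM in them (median 552030), and 2655 TPM (median 1062) in the 230 cells kept. Cp, ceruloplasmin, a copper-carrying ferroxidase, averaged 47852 TPM in the cells left out and 334 TPM in the cells kept, and each of the 30 cells left out held at least 9395 TPM. Smco1 averaged 44472 TPM in the cells left out, where it was never below 13870.0 TPM, and 1165 TPM in the cells kept. Pax6, a transcription factor of neural progenitors, had medians of 173 and 101 TPM in the cells left out and kept. The cells left out still held microglial transcripts at a lower level, with Csf1r at a median of 126 TPM in the cells left out against 815 TPM in the cells kept, and Cx3cr1, the fractalkine receptor, at 142 TPM against 2916 TPM. They had a median of 1444 genes, against 3554.5 in the cells kept. What produced these cells was not tested.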
